A study of Mus musculus with 16 samples.

Results

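The genes described here encode potassium, sodium and voltage-gated calcium channel subunits in the sciatic nerve. Members were the genes of the array's probe table with 1 symbol beginning Kcn, Scn followed by a digit, or Cacn, and for each gene the brightest probe set, by mean over the 16 arrays, was used. This gave 119 genes of 18193, of which 85 had a mean of at least log2 5.37, the 30th percentile of all probe sets, and were tested among 14545 genes. The other 34 members were dimmer than this on average. The symbols also took in genes that are not channel subunits, namely the noncoding transcripts Kcnq1ot1, Kcnmb4os1 and Kcnmb4os2, and most of the Cacng genes, whose products (TARPs) accompany AMPA-type glutamate receptors.

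RNA came from WldS mice (C57BL/6 OlaHsd-Wlds), whose spontaneous mutation delays the breakdown of severed axons, and from wild-type C57BL/6 mice, 56 of each strain and 8 to 12 weeks old. The left sciatic nerve was crushed at mid-thigh, and a piece of distal nerve running from 1 to 5 mm past the lesion was taken 3, 7 or 14 days later. Day 0 mice were uninjured. Nerves of a group were pooled, and each of the 8 groups (WldS and C57BL/6 at days 0, 3, 7 and 14) had 2 arrays that the labels call biological replicates. All p-values below therefore measure the spread between pools and not between mice, and nothing in the labels says whether the 2 pools came from separate dissections.

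As background, potassium channels set the resting potential and end the action potential, sodium channels start it, and calcium channels turn depolarization into calcium entry. In a myelinated nerve, sodium channels gather at the node of Ranvier while Kv1 potassium channels lie under the myelin at the juxtaparanode, and Schwann cells use inwardly rectifying channels to take up potassium. The neuronal cell bodies lie outside the segment, so its RNA comes from Schwann cells, connective tissue, vessels, blood-derived cells and whatever RNA axons carry. Since the tissue is bulk, fewer cells of a type and less RNA per cell cannot be told apart in any value below.

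Values are log2 probe set signals. Array medians ran from 6.42 to 6.49, and the typical (median) SD between both pools of 1 group was 0.0608 to 0.145. Group means of Nmnat1, which is fused into the mutant WldS transcript, were 8.62 to 9.19 in WldS nerves and 5.46 to 6.17 in C57BL/6 nerves. RNA quality was judged by the log2 3' minus log2 5' signal of control transcripts, averaged over actin and Gapdh (here the 3'/5' index). It stood out on 2 arrays. The index was 3.81 for replicate 1 of WldS day 0, 3.23 for replicate 2 of WldS day 14, and 1.63 to 2.46 on the other 14. Over 12 skeletal muscle genes the mean signal was 6.93 in WldS day 0 replicate 2, against 5.33 to 5.77 in the other 15 arrays, and of the muscle channel genes among the members Cacna1s and Cacng1 were below log2 5.37 on every array. The 9 myelin genes averaged 12.1 to 12.34 in uninjured WldS nerves and 12.2 to 12.28 in uninjured C57BL/6 nerves, and 10 axonal neuron genes averaged 6.23 to 6.27 there in WldS and 6.36 to 6.42 in C57BL/6, with 3 of the 10 below the dim filter of log2 5.37 in each.

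The promoter sequences of 5 members are shown because these genes carried the main patterns below. On the probe sets used, Kcnk1 and Kcnj13 fell furthest in C57BL/6 nerves, Kcna2 and Kcna6 fell at day 3 and had returned or overshot by day 14, and Kcnj10 rose late. Each stretch is the 250 bases before the gene's start in RefSeq's GRCm38.p6 annotation, 5′ to 3′ on the gene's strand, at chr8:125994852-125995101 (+ strand), chr1:87394730-87394979 (- strand), chr3:107101317-107101566 (+ strand), chr6:126740675-126740924 (- strand) and chr1:172340960-172341209 (+ strand). Of the 119 members, 91 had an entry in that table. Capitals mark matches, on either strand, to the core letters of factors active in Schwann cells, GTGGGNG (EGR), ACAANG (SOX), TGANTCA (AP-1) and GGAATG (TEAD).
Kcnk1: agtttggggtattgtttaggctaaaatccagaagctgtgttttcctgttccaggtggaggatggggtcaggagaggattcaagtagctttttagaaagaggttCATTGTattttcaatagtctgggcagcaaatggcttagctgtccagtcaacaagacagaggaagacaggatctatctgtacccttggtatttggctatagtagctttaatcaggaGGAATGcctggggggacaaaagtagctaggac
Kcnj13: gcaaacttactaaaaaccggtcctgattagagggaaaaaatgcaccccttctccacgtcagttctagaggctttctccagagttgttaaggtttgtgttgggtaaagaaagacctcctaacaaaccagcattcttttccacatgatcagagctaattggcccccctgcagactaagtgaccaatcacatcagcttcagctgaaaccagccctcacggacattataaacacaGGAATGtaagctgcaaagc
Kcna2: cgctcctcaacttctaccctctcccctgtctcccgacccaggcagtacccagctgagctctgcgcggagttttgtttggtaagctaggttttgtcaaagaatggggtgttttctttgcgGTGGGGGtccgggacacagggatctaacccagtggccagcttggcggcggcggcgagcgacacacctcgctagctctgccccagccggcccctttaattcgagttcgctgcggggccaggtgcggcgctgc
Kcna6: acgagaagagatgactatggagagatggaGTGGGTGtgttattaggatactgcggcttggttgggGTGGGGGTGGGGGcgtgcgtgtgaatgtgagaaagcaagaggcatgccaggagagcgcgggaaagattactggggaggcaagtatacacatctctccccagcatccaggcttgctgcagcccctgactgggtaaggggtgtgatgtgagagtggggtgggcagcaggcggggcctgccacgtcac
Kcnj10: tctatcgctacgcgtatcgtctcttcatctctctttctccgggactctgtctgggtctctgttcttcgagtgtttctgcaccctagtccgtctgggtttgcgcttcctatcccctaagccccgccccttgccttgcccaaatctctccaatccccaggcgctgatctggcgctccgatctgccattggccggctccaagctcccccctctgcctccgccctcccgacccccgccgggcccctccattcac
The Kcna6 window held 3 EGR cores, of which a pair overlapped by 1 base, and the Kcna2 window held 1. The Kcnk1 window held 1 SOX and 1 TEAD core, the Kcnj13 window held 1 TEAD core, and no match lay in the Kcnj10 window. Among 32851 windows of the same length in the table, 28.1% held an EGR core, 36.3% a SOX core, 6.75% an AP-1 site and 12.6% a TEAD core. These are letter matches in one window and not measured sites.

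Against the uninjured nerve, 42 of the 85 tested members changed at some day in at least 1 strain (limma adjusted p below 0.05), which is 49.4% against 65.2% of all genes tested. At day 3 the changes were mostly falls. In WldS nerves 21 members changed, 2 higher and 19 lower, where 36% of all genes were called (20.8% higher and 15.2% lower). In C57BL/6 nerves 25 changed, 7 higher and 18 lower, where 41% of all genes were called (22.6% higher and 18.4% lower). The median change over the 85 members was -0.084 in WldS and -0.064 in C57BL/6, and over all genes it was -0.02 in WldS and 0.019 in C57BL/6.

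By day 7 the numbers were 6 higher and 19 lower in WldS nerves (all genes 35.2%, 21.9% higher and 13.3% lower) and 13 higher and 14 lower in C57BL/6 nerves (all genes 36.1%, 19.6% higher and 16.4% lower). At day 14 they were 9 higher and 7 lower in WldS (all genes 21.3%, 12.7% higher and 8.56% lower) and 13 higher and 12 lower in C57BL/6 (all genes 33.7%, 17.1% higher and 16.7% lower). Day 14 set against day 3 gave mostly rises, 15 against 2 falls in WldS (all genes 19.2%, 8.06% higher and 11.2% lower) and 16 against 4 falls in C57BL/6 (all genes 31.7%, 13.7% higher and 18% lower). The rises found in both strains included Kcna1, Kcna2, Kcna6, Kcnj10, Scn7a and Scn3b. Another probe set ended the calls of Kcna2 and Scn3b in both strains and that of Kcna6 in WldS. The WldS rise of Scn3b was also lost without WldS day 3 replicate 1 or day 14 replicate 2, an array of high 3'/5' index. It was lost with that index as a covariate too. The strains had their own day 0 arrays, so their lists can be set side by side. Of the day 3 falls, 14 were shared, which is 73.7% of the WldS list and 77.8% of the C57BL/6 list, and over all genes it was 69.5% of the WldS list and 57.3% of the C57BL/6 list. In that order, the day 3 rises shared were 100% and 28.6% (all genes 73.3% and 67.7%). Shared day 7 falls were 52.6% and 71.4% (all genes 65.6% and 53.1%), and rises 83.3% and 38.5% (all genes 64.7% and 72.3%). Shared day 14 falls were 57.1% and 33.3% (all genes 82.1% and 42.2%), and rises 88.9% and 61.5% (all genes 77.2% and 57.5%). A single member, Kcna6, was called in opposite directions in the strains, at day 7, where 32 of the 14545 genes were. The bars of the share of genes called show that channel genes lay below the share of all genes in each comparison with day 0. They lay just above it between strains at day 3 (10.6% against 9.44%) and for day 14 against day 3 in WldS (20% against 19.2%). They lay further above it between strains at day 7 (15.3% against 6.83%) and at each day for the interaction defined below. At day 14 the interaction was called for 3 members only, and the interaction counts moved when arrays were left out, as given at the end.

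**Figure D1:**
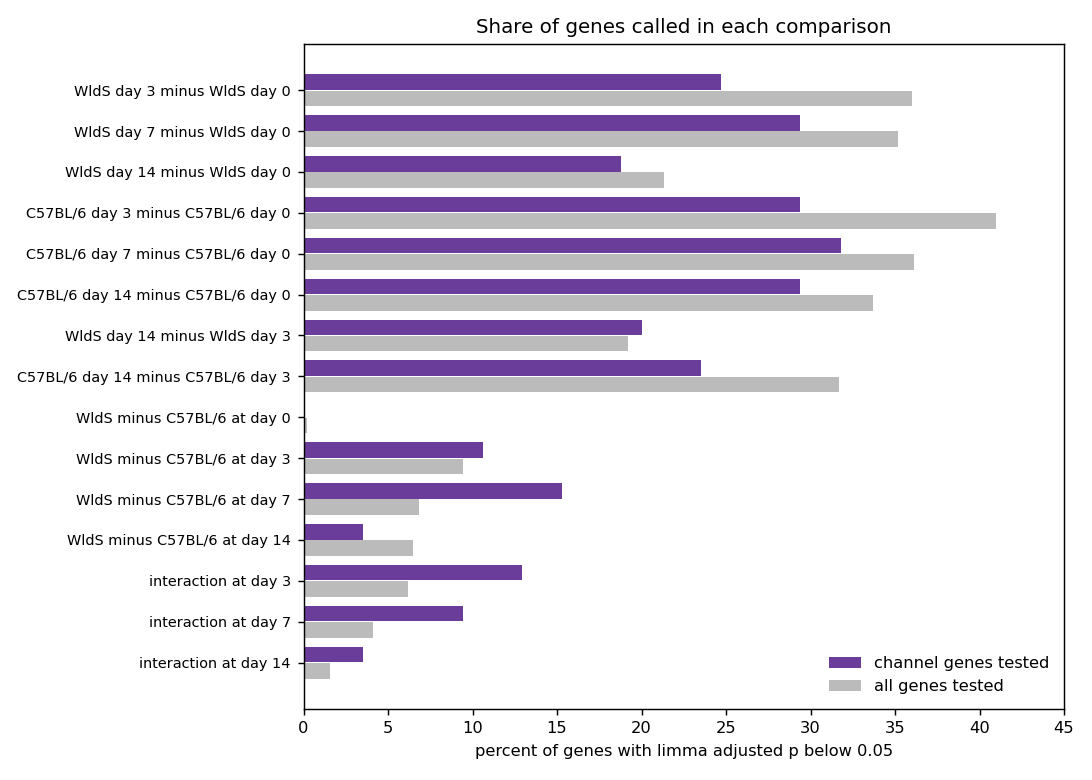
Percent of genes with a limma adjusted p below 0.05 in each of the 15 comparisons, for the 85 channel genes tested (purple) and all 14545 genes tested (grey). Channel genes stood at 24.7% in WldS and 29.4% in C57BL/6 at day 3, where all genes stood at 36% in WldS and 41% in C57BL/6, and at 12.9% for the day 3 interaction, where all genes stood at 6.16%.

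**Figure D2:**
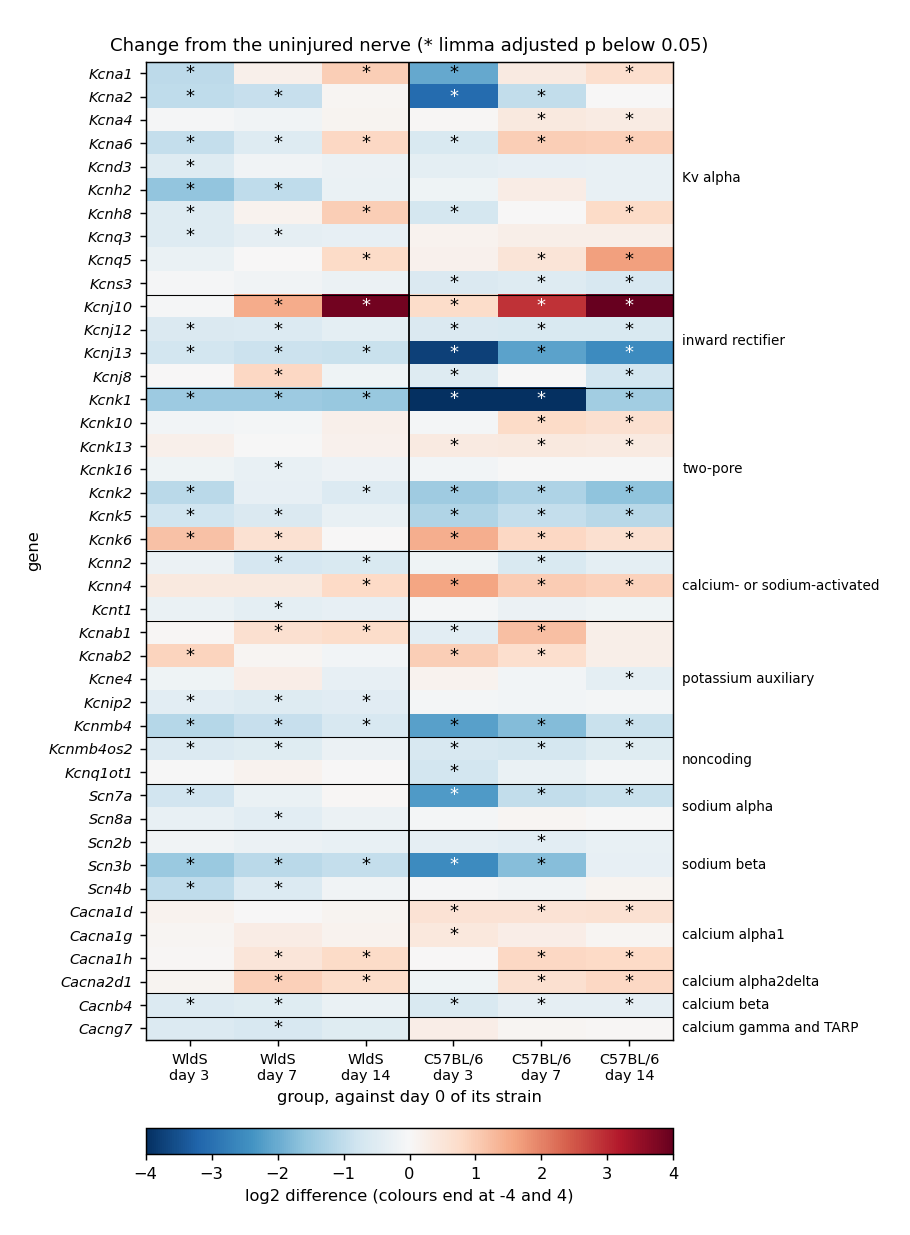
Log2 change from day 0 of the same strain for the 42 members called at any day, with WldS columns at the left and C57BL/6 columns at the right, grouped by channel class. Asterisks mark limma adjusted p below 0.05, blue is lower and red higher than day 0, and colours end at 4 in either direction. The deepest blue is in Kcnk1, Kcnj13 and Kcna2 of C57BL/6 nerves and the deepest red in Kcnj10 at day 14 of both strains.

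Voltage-gated potassium (Kv) alpha subunits form the pore of the delayed rectifier and related channels. Of 31 such members, 23 were tested, and at day 3 there were 7 falls in WldS nerves (Kcna1, Kcna2, Kcna6, Kcnd3, Kcnh2, Kcnh8 and Kcnq3) and 5 in C57BL/6 nerves (Kcna1, Kcna2, Kcna6, Kcnh8 and Kcns3), with no rise in either. At day 14 there were 4 rises and no fall in WldS (Kcna1, Kcna6, Kcnh8 and Kcnq5) and 5 rises and 1 fall in C57BL/6 (Kcna1, Kcna4, Kcna6, Kcnh8 and Kcnq5 higher, Kcns3 lower). Over all genes the share lower at day 3 was 15.2% in WldS and 18.4% in C57BL/6, and the share higher at day 14 was 12.7% in WldS and 17.1% in C57BL/6. Several of these calls rest on single arrays. The WldS day 3 call of Kcnd3 was lost without WldS day 0 replicate 1 or either WldS day 3 array (highest limma adjusted p = 0.287), and that of Kcnh8 without WldS day 0 or day 3 replicate 1 (-0.38 and -0.47, limma adjusted p = 0.0656 and 0.0603). Both were also lost with the 3'/5' index as a covariate (limma adjusted p = 0.837 for Kcnd3 and 0.155 for Kcnh8). In C57BL/6 nerves the Kcns3 call was lost in 3 of the 16 fits without 1 array at day 3 (highest limma adjusted p = 0.154) and in 2 at day 14 (highest limma adjusted p = 0.126), and the Kcna4 call at day 14 in 6 (0.27 to 0.36, highest limma adjusted p = 0.154).

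Kcna2 encodes Kv1.2, the subunit that pairs with Kv1.1 at the juxtaparanode. In WldS nerves its 2 arrays read 10.06 and 10.47 at day 0, 9.29 and 9.23 at day 3, 9.42 and 9.25 at day 7, and 10.37 and 10.33 at day 14. In C57BL/6 nerves they read 10.51 and 10.48, 7.29 and 7.55, 9.57 and 9.44, and 10.46 and 10.58 over the same days. The day 3 arrays lay below the day 0 arrays in both strains, and the C57BL/6 day 3 arrays lay below every other array. The change at day 3 was -1.01 ± 0.14 in WldS (limma adjusted p = 7.04e-05), a 2.01-fold drop, and -3.07 ± 0.14 in C57BL/6 (limma adjusted p = 9.75e-10), an 8.4-fold drop (log2 ± SE here and below). The WldS change minus the C57BL/6 change, called the interaction below, was 2.07 ± 0.2 at day 3 (limma adjusted p = 1.71e-05). Of the other Kcna2 probe sets above the dim filter, the brighter gave -1.43 in WldS and -3 in C57BL/6 at day 3, and the dimmer gave -0.3 in WldS and -0.29 in C57BL/6 with an interaction of -0.01.

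Kcna1 encodes Kv1.1, and Kcna6, its neighbour on chromosome 6, encodes Kv1.6. Kcna1 averaged 10.56 ± 0.27 in WldS nerves at day 3 (SD, n = 2 pools throughout), against 11.61 ± 0.44 at day 0, and 10.03 ± 0.14 in C57BL/6 nerves at day 3, against 12.09 ± 0.01 at day 0. The changes were -1.04 ± 0.2 in WldS (limma adjusted p = 0.000991) and -2.06 ± 0.2 in C57BL/6 (limma adjusted p = 1.45e-06). At day 14 it stood above day 0, by 0.97 ± 0.2 in WldS (limma adjusted p = 0.00324) and by 0.66 ± 0.2 in C57BL/6 (limma adjusted p = 0.0197), where leaving out either C57BL/6 day 0 array or replicate 1 of day 14 ended the C57BL/6 call (limma adjusted p from 0.0785 to 0.149).

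For Kcna6 the WldS arrays read 8.29 and 8.08 at day 0, 7.07 and 7.41 at day 3, 7.69 and 7.63 at day 7, and 8.94 and 9.08 at day 14. The C57BL/6 arrays read 8.38 and 8.01, 7.67 and 7.49, 9.17 and 9.15, and 9.14 and 9.16. All day 7 arrays of WldS lay below, and those of C57BL/6 above, the day 0 arrays of their strain. The day 7 changes were -0.52 ± 0.14 in WldS (limma adjusted p = 0.0126) and 0.97 ± 0.14 in C57BL/6 (limma adjusted p = 0.000118), with an interaction of -1.49 ± 0.2 (limma adjusted p = 0.000791). The WldS call at day 7 was lost without WldS day 0 replicate 1 (-0.41, limma adjusted p = 0.0912), an array of high 3'/5' index, or WldS day 7 replicate 2 (-0.49, limma adjusted p = 0.0583), and the day 3 fall of C57BL/6 was lost without its day 0 replicate 1 (-0.43, limma adjusted p = 0.0584). The interaction kept its call in all 16 fits that left out 1 array, between -1.67 and -1.31. The WldS call at day 7 was also lost without the 2 arrays of high 3'/5' index (-0.41, limma adjusted p = 0.0933) and with that index as a covariate (-0.32, limma adjusted p = 0.226). The other Kcna6 probe set read -0.17 in WldS and 0.35 in C57BL/6 at day 7, with an interaction of -0.52, none of them called (limma adjusted p = 0.6, 0.285 and 0.47), so the opposite calls rest on 1 probe set. That other probe set read -0.27 in WldS and -0.47 in C57BL/6 at day 3, and 0.34 in WldS and 0.33 in C57BL/6 at day 14. None of these was called, and the WldS rise at day 14 was also lost for the mean of probe sets.

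Kcnh2 encodes the ERG1 (Kv11.1) channel, known for cardiac repolarization. It averaged 7.09 ± 0.03 in WldS nerves at day 3 and 7.68 ± 0.18 at day 7, against 8.69 ± 0.38 at day 0. In C57BL/6 nerves it averaged 8.18 ± 0.16 at day 3 and 8.65 ± 0.01 at day 7, against 8.34 ± 0.01 at day 0. Its change was -1.59 ± 0.17 in WldS (limma adjusted p = 5.13e-06), and the C57BL/6 values moved by -0.16 without a call. The interaction was -1.44 ± 0.24 at day 3 (limma adjusted p = 0.00194) and -1.31 ± 0.24 at day 7 (limma adjusted p = 0.00581), and both kept their call in all 16 fits without 1 array.

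Other Kv members included the M-current subunits Kcnq3 and Kcnq5. Kcnq5 averaged 7.54 ± 0.14 at day 14 against 6.77 ± 0.05 at day 0 in WldS, and 8.44 ± 0.42 against 6.81 ± 0.06 in C57BL/6. It rose by 0.76 ± 0.18 in WldS (limma adjusted p = 0.00797) and by 1.63 ± 0.18 in C57BL/6 (limma adjusted p = 1.01e-05). Without WldS day 14 replicate 2 the WldS rise was 0.66 with limma adjusted p = 0.058. The strain difference at day 14, -0.9 ± 0.18 (limma adjusted p = 0.00846), was lost without C57BL/6 day 14 replicate 1 (-0.6, limma adjusted p = 0.119) or WldS day 14 replicate 1 (-0.8, limma adjusted p = 0.0526). A second Kcnq5 probe set gave 0.36 for the WldS rise (limma adjusted p = 0.119) and 0 for the strain difference (limma adjusted p = 0.993). Kcnh8, of the ether-a-go-go family, rose at day 14 by 0.98 ± 0.13 in WldS and 0.76 ± 0.13 in C57BL/6 (limma adjusted p = 0.000117 and 0.00049), and its day 3 means of 5.31 in WldS and 5.33 in C57BL/6 lay below the dim filter, so the sizes of its day 3 falls are limited by background.

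**Figure D3:**
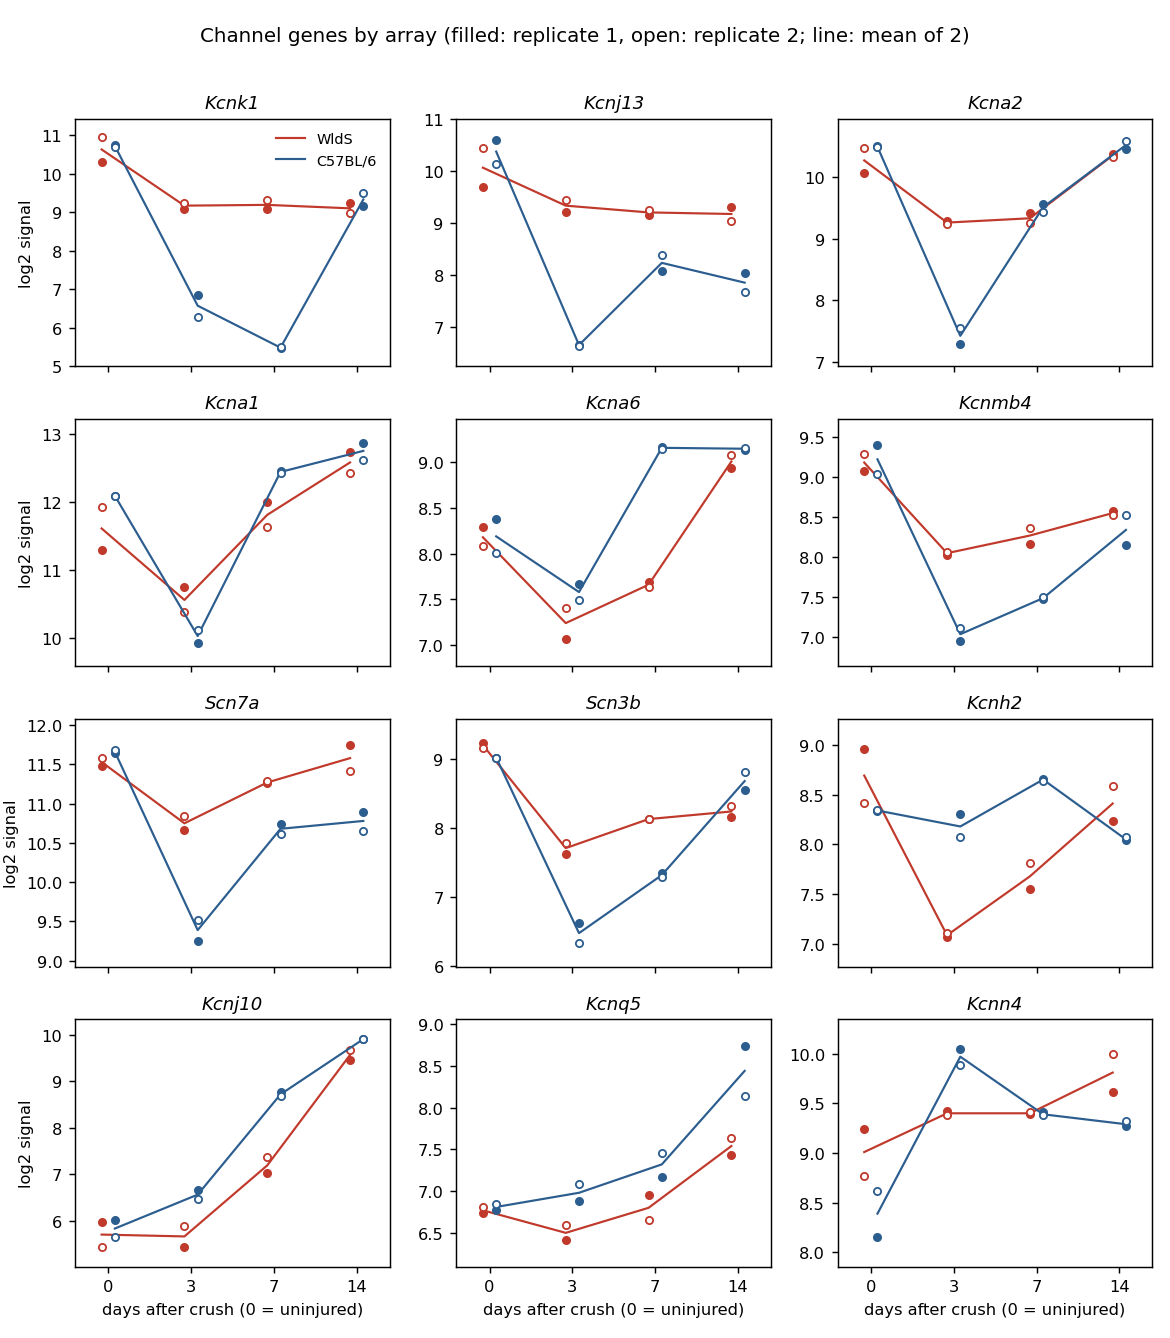
Log2 signal of 12 members on every array by day, with WldS in red and C57BL/6 in blue, filled points for replicate 1, open points for replicate 2 and lines through the means of 2 arrays. Days are evenly spaced and each panel has its own signal axis. Kcnk1, Kcnj13 and Kcna2 dipped furthest in C57BL/6 nerves, Kcnh2 fell in WldS nerves, and Kcnj10 climbed to 9.57 in WldS and 9.91 in C57BL/6 at day 14.

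Inward rectifiers (Kir) pass potassium into cells and hold the resting potential. Of 15 members, 10 were tested. Kcnj13 encodes Kir7.1. Its WldS arrays read 9.7 and 10.45 at day 0, 9.22 and 9.45 at day 3, 9.17 and 9.26 at day 7, and 9.31 and 9.05 at day 14. The C57BL/6 arrays read 10.61 and 10.14, 6.67 and 6.65, 8.09 and 8.4, and 8.04 and 7.68. Every injured C57BL/6 array lay below every WldS array of any day. At day 3 the change was -0.74 ± 0.22 in WldS (limma adjusted p = 0.0186) and -3.72 ± 0.22 in C57BL/6 (limma adjusted p = 1.27e-08), which is 1.67-fold and 13.1-fold lower. The interaction was 2.98 ± 0.31 at day 3 (limma adjusted p = 4.51e-05), between 2.61 and 3.35 and called in all 16 fits that each left out 1 array. The interactions of 1.27 ± 0.31 at day 7 and 1.62 ± 0.31 at day 14 (limma adjusted p = 0.0363 and 0.0188) lost their call in 8 and 3 of those fits (highest limma adjusted p = 0.161 and 0.105). The WldS change at day 3 was -0.36 without WldS day 0 replicate 2 (limma adjusted p = 0.203) and -0.62 without WldS day 3 replicate 1 (limma adjusted p = 0.133).

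Kcnj10 encodes Kir4.1, the potassium-buffering channel of glia. WldS arrays read 5.97 and 5.44 at day 0, 5.43 and 5.89 at day 3, 7.03 and 7.36 at day 7, and 9.47 and 9.67 at day 14. C57BL/6 arrays read 6.02 and 5.64, 6.65 and 6.47, 8.76 and 8.69, and 9.91 and 9.91. The day 14 arrays lay above all earlier arrays of either strain. The rise at day 14 was 3.87 ± 0.2 in WldS and 4.08 ± 0.2 in C57BL/6 (14.6-fold and 17-fold, limma adjusted p = 1.89e-08 and 5.21e-09), and at day 7 it was 1.49 ± 0.2 in WldS and 2.9 ± 0.2 in C57BL/6. The interaction at day 7 was -1.41 ± 0.28 (limma adjusted p = 0.0113), and it was lost without C57BL/6 day 0 replicate 2 (-1.21, limma adjusted p = 0.0563) or day 7 replicate 1 (-1.37, limma adjusted p = 0.0511). The day 0 arrays sit near log2 5.37, so the folds are limited by background. Melanocyte genes averaged 6.29 to 6.3 at day 0, 6.2 to 6.24 at day 3, 6.28 at day 7 and 6.67 to 6.73 at day 14 in WldS nerves, and 6.29 to 6.4, 6.09 to 6.25, 6.88 to 6.9 and 6.97 to 7.03 in C57BL/6 nerves. Repair and immature Schwann cell genes averaged 6.98 to 7.07, 7.38 to 7.67, 8.48 to 8.55 and 8.85 to 8.97 in WldS nerves over the same days, and 7.1 to 7.16, 9.44 to 9.6, 9.45 to 9.64 and 9.17 to 9.18 in C57BL/6 nerves. Their part in the Kcnj10 result was not tested.

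Of the ATP-sensitive channel, the Kcnj8 subunit (Kir6.1), found in vessel walls, rose at day 7 in WldS nerves by 0.83 ± 0.17 (limma adjusted p = 0.00167) and changed at day 14 in C57BL/6 nerves by -0.75 ± 0.17 (limma adjusted p = 0.00304). The Kcnj11 subunit (Kir6.2) had group means of 10.61 to 10.76 and no call in any of the 15 comparisons. With the 3'/5' index as a covariate the WldS day 7 value of Kcnj8 was 0.5 and not called (limma adjusted p = 0.0643). Its other differences from day 0 were 0.03 at day 3 and -0.18 at day 14 in WldS, and -0.51 at day 3 and -0.02 at day 7 in C57BL/6, where that of day 3 alone was called (limma adjusted p = 0.0233). This C57BL/6 day 3 call of Kcnj8 was lost without C57BL/6 day 0 replicate 1 or either C57BL/6 day 3 array. Over 9 smooth muscle and pericyte markers the array means were 9.3 to 9.44 at day 0, 9.61 to 9.65 at day 3, 9.58 at day 7 and 9.02 to 9.1 at day 14 in WldS nerves, and 9.5 to 9.69, 9.19 to 9.31, 9.07 to 9.1 and 8.79 to 8.84 in C57BL/6 nerves. Over 8 endothelial markers they were 7.84 to 8.15, 8.56 to 8.76, 8.72 to 8.93 and 7.74 to 8.14 in WldS nerves, and 8.35 to 8.41, 8.37 to 8.69, 8.24 to 8.35 and 7.9 to 8.04 in C57BL/6 nerves. Their part in the Kcnj8 result was not tested. Kcnj12 (Kir2.2) changed by -0.59 ± 0.13 at day 3 in WldS and by -0.58 ± 0.13 in C57BL/6 (limma adjusted p = 0.00291 and 0.00276), with means of 5.59 in WldS and 5.51 in C57BL/6. With the index as a covariate the WldS value was -0.46 and not called (limma adjusted p = 0.0908).

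K2P (tandem-pore) channels give the background potassium leak. Of 12 members, 10 were tested. Kcnk1 encodes TWIK-1. WldS arrays read 10.31 and 10.95 at day 0, 9.09 and 9.25 at day 3, 9.08 and 9.31 at day 7, and 9.23 and 8.97 at day 14. C57BL/6 arrays read 10.75 and 10.69, 6.85 and 6.28, 5.47 and 5.49, and 9.17 and 9.5. Injured WldS nerves stayed between 8.97 and 9.31, while C57BL/6 nerves reached the dim filter at day 7 and read 9.17 and 9.5 at day 14. The day 7 change was -1.44 ± 0.21 in WldS (limma adjusted p = 0.000142) and -5.24 ± 0.21 in C57BL/6 (limma adjusted p = 3.19e-10), with 2.72-fold and 37.8-fold lower signal. The interactions were 2.69 ± 0.3 at day 3 (limma adjusted p = 6.32e-05) and 3.8 ± 0.3 at day 7 (limma adjusted p = 4.33e-06), both called in all 16 fits without 1 array. The C57BL/6 day 7 arrays sit near log2 5.37, so that fold is limited by background. A second, dimmer probe set gave -1.52 in WldS and -2.27 in C57BL/6 at day 3, and -1.5 in WldS and -2.26 in C57BL/6 at day 7, with an interaction of 0.76 at both days that was not called (limma adjusted p = 0.155 at day 3 and 0.172 at day 7). On this probe set the C57BL/6 change was still -1.76 at day 14.

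The mechanosensitive Kcnk2 (TREK-1) changed by -1.09 ± 0.16 at day 3 in WldS and by -1.42 ± 0.16 in C57BL/6 (limma adjusted p = 0.000101 and 5.8e-06), and at day 14 by -0.55 ± 0.16 in WldS and -1.62 ± 0.16 in C57BL/6. Without WldS day 0 replicate 2 the WldS day 14 change was -0.33 (limma adjusted p = 0.194), and leaving out either WldS day 14 array also ended the call. Kcnk5 (TASK-2) fell at day 3 in both strains, with changes of -0.81 ± 0.14 in WldS and -1.2 ± 0.14 in C57BL/6 (limma adjusted p = 0.000589 and 1.22e-05). Kcnk6 (TWIK-2) rose in both, by 1.16 ± 0.19 in WldS and 1.44 ± 0.19 in C57BL/6 at day 3 (limma adjusted p = 0.00028 and 2.82e-05), with means of 10.02 ± 0.08 at day 3 against 8.86 ± 0.23 at day 0 in WldS and 9.92 ± 0.21 against 8.49 ± 0.36 in C57BL/6. Kcnk10 (TREK-2) rose by 0.77 ± 0.12 at day 7 in C57BL/6 nerves (limma adjusted p = 0.000131), where the WldS values moved by -0.07 without a call, and its interaction was -0.84 ± 0.16 (limma adjusted p = 0.0109). Without C57BL/6 day 7 replicate 2 this was -0.79 with limma adjusted p = 0.0656, and a second Kcnk10 probe set gave -0.21, with an uncalled C57BL/6 value of 0.14 (limma adjusted p = 0.482).

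Calcium- and sodium-activated potassium channels had 6 tested members of 8. Kcnn4 encodes KCa3.1, a calcium-activated channel of macrophages and lymphocytes. WldS arrays read 9.24 and 8.77 at day 0, 9.42 and 9.38 at day 3, 9.39 and 9.41 at day 7, and 9.61 and 10 at day 14, and C57BL/6 arrays read 8.15 and 8.62, 10.05 and 9.89, 9.41 and 9.38, and 9.27 and 9.32. On this probe set C57BL/6 nerves peaked at day 3, while WldS nerves were highest at day 14. The WldS rise at day 14 was 0.8, and its call was lost without WldS day 0 replicate 2. It was also lost without WldS day 14 replicate 2, an array of high 3'/5' index. The C57BL/6 rise at day 3 was 1.58 ± 0.18 (limma adjusted p = 5.58e-06), the WldS day 3 difference of 0.39 was not called, and the interaction was -1.19 ± 0.25 (limma adjusted p = 0.0109). That interaction was lost without C57BL/6 day 0 replicate 1 (-0.95, limma adjusted p = 0.0591) or day 3 replicate 1 (-1.11, limma adjusted p = 0.051). A second Kcnn4 probe set gave 0.81, 1.02 and 0.84 at days 3, 7 and 14 in WldS and 1.31, 0.88 and 0.58 in C57BL/6, with a day 3 interaction of -0.51 that was not called (limma adjusted p = 0.344). The 10 macrophage markers rose in every case at day 3 in both strains, with array means of 11.28 to 11.51 in WldS and 11.23 to 11.3 in C57BL/6, against 8.77 to 8.96 in uninjured WldS and 8.97 to 9.23 in uninjured C57BL/6 nerves. Their part in the rises of Kcnn4 and Kcnk6 was not tested.

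Auxiliary potassium subunits had 11 tested members of 15. Kcnmb4, the neuronal beta subunit of the BK channel, averaged 8.05 ± 0.03 at day 3 in WldS against 9.18 ± 0.16 at day 0, and 7.04 ± 0.11 in C57BL/6 against 9.22 ± 0.26. The changes were -1.13 ± 0.15 in WldS and -2.18 ± 0.15 in C57BL/6 (limma adjusted p = 4.67e-05 and 4.84e-08), with an interaction of 1.05 ± 0.21 (limma adjusted p = 0.00859). Kcnma1, the BK pore itself, had group means of 5.49 to 5.74 with no call. The Kcnmb4 interaction at day 7 of 0.82 ± 0.21 (limma adjusted p = 0.0464) lost its call in 11 of 16 fits without 1 array. Of the Kv beta subunits, Kcnab1 rose at day 7 by 0.63 ± 0.14 in WldS and 1.19 ± 0.14 in C57BL/6 (limma adjusted p = 0.00301 and 1.36e-05), while the Kcnab2 probe set used rose at day 3 by 0.9 ± 0.13 in WldS and 0.97 ± 0.13 in C57BL/6. A second Kcnab2 probe set gave -0.13 in WldS and -0.07 in C57BL/6 at day 3. The WldS rise of Kcnab1 was 0.48 and not called with the 3'/5' index as a covariate (limma adjusted p = 0.0651). The strain difference in Kcnab1 at day 7 was -0.91 ± 0.14 (limma adjusted p = 0.0009).

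**Figure D4:**
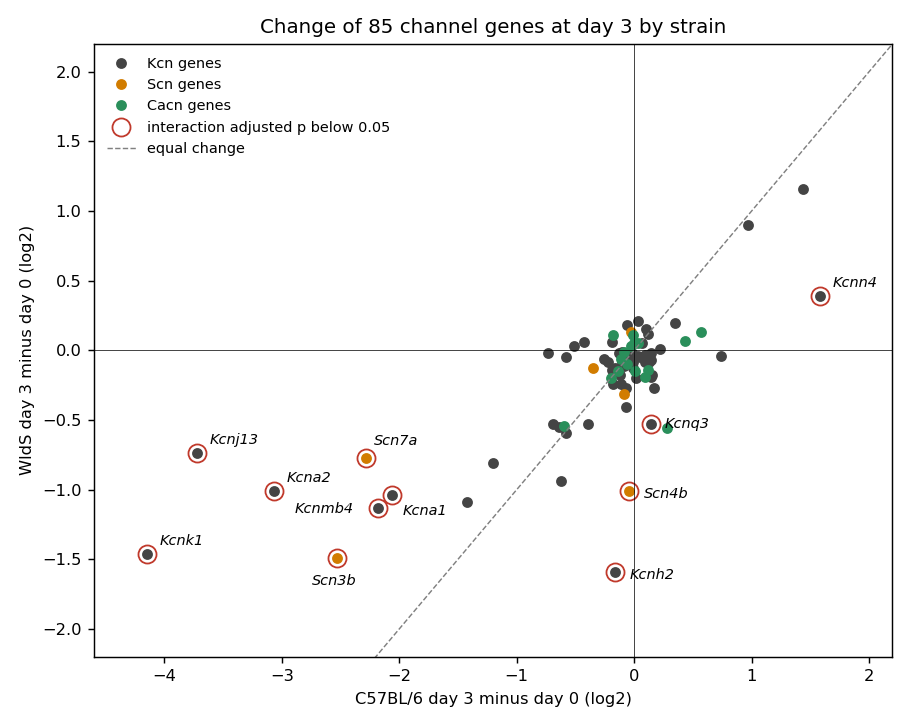
Change from day 0 at day 3 of the 85 channel genes tested, WldS on the vertical axis and C57BL/6 on the horizontal axis, both log2. Rings mark the 11 genes whose change differed between strains with limma adjusted p below 0.05, the dashed line is equal change, and the axes run on different scales. Kcnj13, Kcnk1, Kcna2, Kcna1, Kcnmb4, Scn7a and Scn3b lie above the line, and Kcnh2, Scn4b, Kcnq3 and Kcnn4 below it.

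Sodium channel alpha subunits had 3 tested members of 8. Scn1a, Scn3a, Scn9a and Scn10a were below log2 5.37 on every array and Scn2a on all but 4. Scn7a encodes Nax, an atypical sodium-level sensor that is found in Schwann cells. Its WldS arrays read 11.48 and 11.58 at day 0, 10.67 and 10.84 at day 3, 11.26 and 11.29 at day 7, and 11.75 and 11.42 at day 14. The C57BL/6 arrays read 11.64 and 11.68, 9.25 and 9.52, 10.74 and 10.62, and 10.9 and 10.65, with the day 3 arrays below all others. The day 3 change was -0.77 ± 0.14 in WldS and -2.28 ± 0.14 in C57BL/6 (limma adjusted p = 0.000578 and 1.48e-08), a difference of 1.5 ± 0.2 (limma adjusted p = 0.000309) that was called in all 16 fits without 1 array. With other Scn7a probe sets the interaction was 0.7 and 1.24 and not called (limma adjusted p = 0.278 and 0.0501). In C57BL/6 nerves Scn7a was still lower at day 14, with a change of -0.89 ± 0.14 (limma adjusted p = 0.000221), which was -0.37 and no longer called for the mean of its probe sets (limma adjusted p = 0.114).

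Scn8a encodes Nav1.6, the sodium channel of the mature node. The probe set used averaged 6 ± 0.1 at day 3 in WldS against 6.31 ± 0.23 at day 0, and 5.87 ± 0 in C57BL/6 against 5.96 ± 0.2, and neither was called. A second probe set with nearly the same mean read 6.08 and 6.28 at day 3 in WldS against 6.44 and 6.62 at day 0, and 5.21 and 5.04 in C57BL/6 against 6.85 and 6.74. With it, the day 3 change was -0.35 ± 0.1 in WldS and -1.67 ± 0.1 in C57BL/6 (limma adjusted p = 0.0266 and 1.11e-07), and the interaction was 1.32 ± 0.15 (limma adjusted p = 0.000246). The C57BL/6 values at day 3 lie below the dim filter, and this probe set was singled out after its values were seen. Another probe set, with a mean of 5.65, read -0.48 in WldS and -0.83 in C57BL/6 at day 3, with an interaction of 0.35. The probe set used was called lower at day 7 in WldS (-0.41), a call lost with the 3'/5' index as a covariate.

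The beta subunits, which steer sodium channels to the membrane, were all tested. Scn3b averaged 7.71 ± 0.11 at day 3 in WldS against 9.2 ± 0.05 at day 0, and 6.48 ± 0.21 in C57BL/6 against 9.02 ± 0. The changes were -1.49 ± 0.13 in WldS (limma adjusted p = 7.31e-07) and -2.53 ± 0.13 in C57BL/6 (limma adjusted p = 2.17e-09), and the interaction was 1.05 ± 0.18 (limma adjusted p = 0.00276). At day 14 it averaged 8.24 ± 0.11 in WldS, a change from day 0 of -0.96 ± 0.13 (limma adjusted p = 0.000111), and 8.68 ± 0.18 in C57BL/6, where the change of -0.34 was not called. A second, dimmer probe set read 0 in WldS and -0.34 in C57BL/6 at day 3, with an interaction of 0.34 that was not called (limma adjusted p = 0.358). Scn4b changed at day 3 by -1.01 ± 0.15 in WldS nerves (limma adjusted p = 0.000134), against an uncalled -0.04 in C57BL/6, and its interaction of -0.97 ± 0.21 (limma adjusted p = 0.0147) was lost without WldS day 0 or day 3 replicate 1, C57BL/6 day 0 replicate 2 or C57BL/6 day 3 replicate 1 (-0.73 to -0.91, highest limma adjusted p = 0.0766). Scn2b changed at day 7 in C57BL/6 nerves by -0.43 ± 0.14 (limma adjusted p = 0.0276), and by -0.28 without C57BL/6 day 0 replicate 2 or -0.32 without day 7 replicate 2, where it was not called (limma adjusted p = 0.225 and 0.215). The brighter of its other probe sets kept the C57BL/6 day 7 call, at -1.04, and read -0.21 in WldS at that day. In C57BL/6 nerves it read -0.97 at day 3 and -1.07 at day 14. The dimmer gave -0.2 at day 7 in C57BL/6, not called (limma adjusted p = 0.371).

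Calcium channel members are given by subunit. Of 7 tested alpha1 (pore) members of 9, Cacna1d (Cav1.3) rose in C57BL/6 nerves at each day, by 0.57 ± 0.14 at day 3 (limma adjusted p = 0.00465), where no WldS rise was called. Its WldS differences were 0.13, 0.02 and 0.12 at days 3, 7 and 14, and the day 3 interaction of -0.44 was not called. The C57BL/6 call at day 7 was lost without C57BL/6 day 7 replicate 1 (0.43, limma adjusted p = 0.0773) and that at day 14 for the mean of its probe sets (0.34, limma adjusted p = 0.0517). The other Cacna1d probe set gave uncalled values of 0.15, 0.17 and 0.08 in C57BL/6. The T-type Cacna1h (Cav3.2) rose at day 7 by 0.49 ± 0.13 in WldS and 0.83 ± 0.13 in C57BL/6 (limma adjusted p = 0.00771 and 0.000142), and the WldS rise lost its call without WldS day 0 replicate 1 (0.38, limma adjusted p = 0.0701) or day 7 replicate 2 (0.4, limma adjusted p = 0.0621), and with the 3'/5' index as a covariate (0.48, limma adjusted p = 0.055). The alpha2delta subunit Cacna2d1, the gabapentin-binding protein known to rise in injured sensory neurons, rose at day 7 by 0.94 ± 0.23 in WldS and 0.65 ± 0.23 in C57BL/6 (limma adjusted p = 0.00539 and 0.0384), where the C57BL/6 call was lost without any 1 of the 6 C57BL/6 arrays of days 0, 7 and 14 (0.49 to 0.8) and the WldS call without WldS day 7 replicate 1 (0.75, limma adjusted p = 0.0548). Both other Cacna2d1 probe sets above the dim filter kept the day 7 calls, at 0.83 and 0.37 in WldS and 0.52 and 0.56 in C57BL/6. The beta subunit Cacnb4 changed at day 3 by -0.54 ± 0.12 in WldS and -0.6 ± 0.12 in C57BL/6 (limma adjusted p = 0.00288 and 0.00103), and the WldS value was -0.3 and not called with the 3'/5' index as a covariate (limma adjusted p = 0.162). Cacna1a, Cacna1b and Cacna1c, the pores of the P/Q-, N- and L-type channels, and Cacnb1 showed no call in any comparison. Among the noncoding members, Kcnq1ot1 changed by -0.73 ± 0.16 at day 3 in C57BL/6 (limma adjusted p = 0.00249), with an uncalled -0.02 in WldS. Its interaction of 0.71 was not called, and with 3 of its 4 other probe sets the C57BL/6 call was lost (limma adjusted p = 0.363 to 0.592). Kcnmb4os2, named as lying opposite Kcnmb4, changed by -0.55 ± 0.13 in WldS and -0.64 ± 0.13 in C57BL/6 at day 3, and its signal cannot be told apart from that of Kcnmb4 without the probes' strand.

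Between strains no member differed at day 0 (0 at limma adjusted p below 0.05, 11 at an unadjusted p below 0.05, all genes 0.227%, 0.0825% higher and 0.144% lower). At day 3 the WldS signal was higher for 6 members (Kcnk1, Kcnj13, Kcna2, Scn7a, Scn3b and Kcnmb4) and lower for 3 (Kcnh2, Kcnj10 and Scn4b), which is 10.6% against 9.44% of all genes (4.82% higher and 4.62% lower), a share near the background. The calls of Kcnj10 and Scn4b were lost without WldS day 3 replicate 1 (limma adjusted p = 0.135 and 0.0647), and that of Kcnj10 also without C57BL/6 day 3 replicate 1. At day 7 there were 6 higher (Kcne4, Kcnj13, Kcnk1, Kcnmb4, Scn3b and Scn7a) and 7 lower (Cacna1h, Kcna4, Kcna6, Kcnab1, Kcnh2, Kcnj10 and Kcnk10), or 15.3% against 6.83% of all genes (3.86% higher and 2.97% lower). In the 16 fits without 1 array the day 7 call of Cacna1h was lost in 10 (highest limma adjusted p = 0.217), that of Scn7a in 4 (0.176), those of Kcna4 and Kcne4 in 3 each (0.11 and 0.104), and those of Kcnj13 and Kcnmb4 in 2 each (0.166 and 0.0567). Cacna1h also lost its call under median centring (limma adjusted p = 0.0504), with the replicate number as a block (limma adjusted p = 0.0578) and for the mean of its probe sets (limma adjusted p = 0.396). With another probe set the differences of Kcnk1 (0.67, limma adjusted p = 0.0552), Scn3b (0.15, limma adjusted p = 0.746) and Kcnk10 (-0.32, limma adjusted p = 0.228) were not called. Those of Kcna6 and Scn7a were also lost with another probe set, and that of Scn7a for the mean of its probe sets. The day 3 calls of Kcna2, Scn3b and Scn7a were each lost with another probe set. The day 14 calls of Scn7a and Kcnq5, given next, were lost with another probe set and for the mean of probe sets. At day 14 there were 2 higher (Kcnj13 and Scn7a) and 1 lower (Kcnq5), or 3.53% against 6.46% of all genes (2.9% higher and 3.55% lower), and the Scn7a call was lost without C57BL/6 day 14 replicate 2 (0.68, limma adjusted p = 0.051). For the change from day 0, 11 interactions were called at day 3, 8 at day 7 and 3 at day 14, which is 12.9%, 9.41% and 3.53%. The background over all genes was 6.16% for the day 3 interaction (4.02% positive, 2.15% negative), 4.11% for that of day 7 (2.89% positive, 1.22% negative) and 1.58% for that of day 14 (0.908% positive, 0.674% negative). The 7 positive interactions at day 3 belonged to genes that fell in both strains and fell less in WldS.

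**Figure D5:**
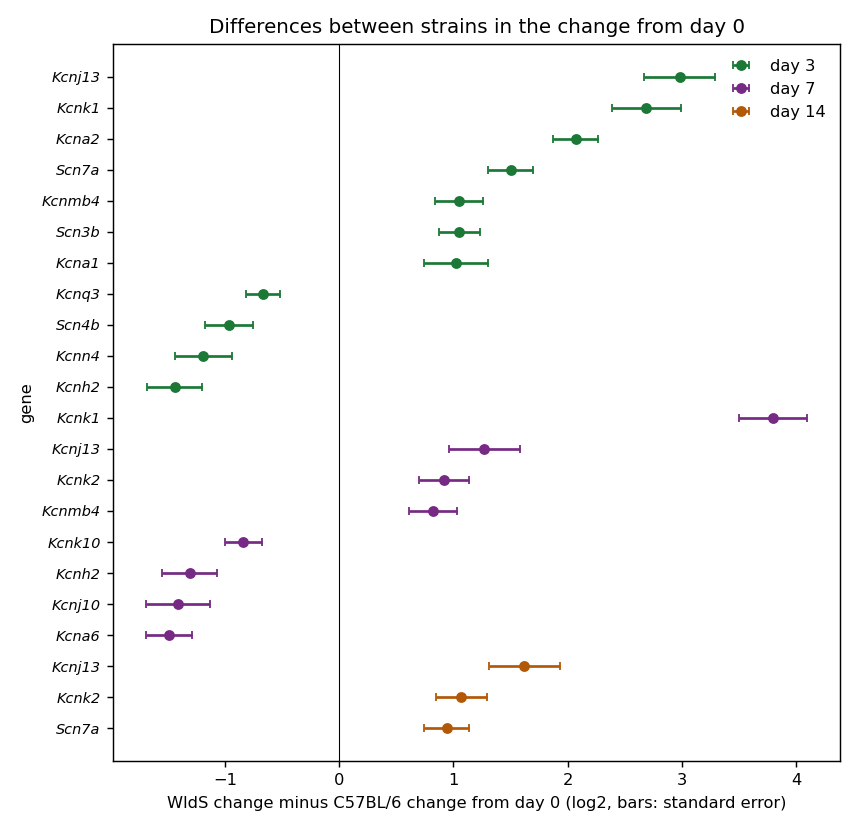
WldS change minus C57BL/6 change from day 0 (log2, with standard error) for the 22 called differences, grouped by day. Points right of 0 are genes that were higher, relative to day 0, in WldS than in C57BL/6 nerves, such as Kcnk1 at 3.8 and Kcnj13 at 2.98, and points left of 0 are led by Kcna6 at -1.49.

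Over 9 myelin genes the array means were 12.1 to 12.34 at day 0, 11.47 to 11.57 at day 3, 11.76 to 11.8 at day 7 and 11.8 to 11.95 at day 14 in WldS nerves, and 12.2 to 12.28, 9.77 to 9.81, 10.23 to 10.29 and 12.01 to 12.17 in C57BL/6 nerves. Of the 9, 8 had a positive and 1 a negative interaction at day 3 (median 1.48), and none was below the dim filter in any group. Fibroblast and perineurial genes averaged 11.2 to 11.51, 10.99 to 11.01, 11.15 and 10.81 to 11.13 over the same days in WldS nerves, and 11.61, 10.27 to 10.29, 10.83 to 10.85 and 10.59 to 10.7 in C57BL/6 nerves. The part of these cell types in the channel results was not tested.

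Other lists of genes that work with the channels were also described, for which the day 3 background over all genes is 20.8% higher and 15.2% lower in WldS and 22.6% higher and 18.4% lower in C57BL/6. Of 19 tested scaffold genes of the node and juxtaparanode, 2 rose and 7 fell at day 3 in WldS, and 3 rose and 7 fell in C57BL/6. Nfasc (neurofascin) changed by -1.37 ± 0.13 in WldS and -1.27 ± 0.13 in C57BL/6 (limma adjusted p = 2.52e-06 and 3.17e-06). Nrcam rose by 2.11 ± 0.16 in C57BL/6 (limma adjusted p = 1.13e-07), with an uncalled -0.38 in WldS and an interaction of -2.49 ± 0.22 (limma adjusted p = 9.24e-06). Of 16 tested partners and regulators of channels, 2 rose and 2 fell at day 3 in WldS, and 3 rose and 2 fell in C57BL/6, led by Vamp2 at -0.91 ± 0.14 in WldS and -1.1 ± 0.14 in C57BL/6 (limma adjusted p = 0.000201 and 2.37e-05).

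Of 23 tested pumps, exchangers and cotransporters, 4 rose and 8 fell at day 3 in WldS, and 3 rose and 9 fell in C57BL/6. The pump regulator Fxyd7 changed by -1.64 ± 0.2 in WldS and -2.27 ± 0.2 in C57BL/6 (limma adjusted p = 2.43e-05 and 6.45e-07), and Fxyd5 rose by 2.01 ± 0.14 in WldS and 1.73 ± 0.14 in C57BL/6 (limma adjusted p = 1.46e-07 and 3.28e-07). Of 26 other cation channels tested, 6 rose and 5 fell at day 3 in WldS and 7 rose and 5 fell in C57BL/6, which is near the background. The leak channel Nalcn changed by -1 ± 0.19 in WldS and -1.81 ± 0.19 in C57BL/6 (limma adjusted p = 0.00101 and 3.37e-06), while Trpv2 rose by 1.73 ± 0.2 in WldS and 1.67 ± 0.2 in C57BL/6 (limma adjusted p = 1.09e-05 and 8.92e-06).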

How the data were processed

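RNA from 16 pooled nerve samples was hybridized to Affymetrix whole-genome mouse arrays, from 10 µg of total RNA each, per the labels. The authors deposited 1 log2 signal per probe set and array, and the array medians nearly coincide. The submitters' processing notes list GCOS 1.4, RMA, limma and Partek but assign none of them a step. Arrays carry no count depth, so their number limits the precision.

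Of 45101 probe sets, 64 were controls, 34945 had 1 symbol, 932 several and 9160 none in the platform's probe table. A gene took its probe set with the highest mean, and genes under log2 5.37 (the 30th percentile) were left out. A model with 1 mean per group was fitted to all 16 arrays (limma 3.58.1, R 4.3.3) with 8 residual and 5.82 prior degrees of freedom, and p-values were two-sided and Benjamini-Hochberg adjusted within each of 15 contrasts over 14545 genes. The fit was tested on simulated data. Named genes were drawn from the 8 largest called rises and 8 largest called falls of a contrast, a list of members known in nerve, and up to 4 called genes of each other list. The members and lists were chosen with earlier results of these data known. Alternatives changed the scaling, the filter, the probe sets, the arrays and the terms of the model. Replicate numbers were checked for pairing: over 28 pairs of groups, same-numbered deviations correlated between -0.582 and 0.193 (median 0.006), and 5 were over 0.1. No consistent positive correlation was seen, so no block was used. The check cannot show that the pools were unpaired.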

Additional observations from a re-analysis of the deposited data

Results flagged for a closer look

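The change from day 0 differed between strains, by limma's test of the interaction, in 22 cases over the 3 injured days. Values are the WldS change minus the C57BL/6 change on the log2 scale.

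At day 3 these were Kcnj13 (2.98), Kcnk1 (2.69), Kcna2 (2.07), Scn7a (1.5), Kcnmb4 (1.05), Scn3b (1.05) and Kcna1 (1.02) on the positive side, and Kcnh2 (-1.44), Kcnn4 (-1.19), Scn4b (-0.97) and Kcnq3 (-0.67) on the negative side. The Kcna1 difference was lost in 10 of 16 fits without 1 array, where its limma adjusted p reached 0.214, Kcnq3's in 4 (up to 0.0935), Scn4b's in 4 and Kcnn4's in 2.

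At day 7 they were Kcnk1 (3.8), Kcnj13 (1.27), Kcnk2 (0.92) and Kcnmb4 (0.82), and on the negative side Kcna6 (-1.49), Kcnj10 (-1.41), Kcnh2 (-1.31) and Kcnk10 (-0.84). At day 14 they were Kcnj13 (1.62), Kcnk2 (1.07) and Scn7a (0.94), where the calls of Kcnk2 and Scn7a were lost in 8 and 6 of those fits. Of the day 7 calls, that of Kcnk2 was lost in 8 of the fits (limma adjusted p up to 0.128), Kcnj13 in 8, Kcnmb4 in 11, Kcnj10 in 2 and Kcnk10 in 1, and the day 14 call of Kcnj13 was lost in 3.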

How the results depend on the processing

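Of 223 called results of single channel genes, 136 held in all 16 fits that left out 1 array and 87 were lost in at least 1. Median centring kept 218, quantile normalization 217, no dim filter 221, the mean of all probe sets 198, the 3'/5' index as a covariate 198, and leaving out the 2 arrays of highest index 196. With the replicate number as a block 216 calls held and 7 were lost.

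Counts of called members without 1 array ranged, for the changes from day 0, from 16 to 22 (day 3), 17 to 24 (day 7) and 11 to 17 (day 14) in WldS, and from 21 to 27, 20 to 27 and 17 to 26 in C57BL/6. From day 3 to day 14 they ranged from 12 to 18 in WldS and 16 to 21 in C57BL/6. Between strains they ranged from 0 to 7 at day 0, 7 to 11 at day 3, 7 to 15 at day 7 and 2 to 7 at day 14, and the interactions from 7 to 15, 4 to 14 and 0 to 3. The 7 at day 0 came without WldS day 0 replicate 2, which left the array of highest index alone in its group. Other counts that moved by over 1.5 times were 13 for WldS day 7 with the index as a covariate, 1, 5, 6 and 5 for the strains at day 14 (mean of probe sets, median centring, quantile normalization, index as a covariate), and 5 and 1 for the interactions at days 7 and 14 without both arrays of high index.

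Other probe sets turned a direction for Kcnab2 (C57BL/6 -0.07, -0.35 and -0.48 at days 3, 7 and 14, WldS -0.13 and -0.41 at days 3 and 7), Scn7a (C57BL/6 0.13 and 0.11 at days 7 and 14, strains at day 14 -0.11), Scn8a (C57BL/6 day 7 -1.36 and -0.57, and -0.39 for the mean of probe sets, strains at day 7 0.49, interactions 1.32 and 0.75), Kcnk10 (C57BL/6 day 14 -0.03), Kcnmb2 (WldS day 7 -0.35), Kcnq1ot1 (WldS day 7 -0.25, C57BL/6 day 14 against day 3 -0.03), Kcnq5 (WldS day 7 -0.43), Scn3b (WldS day 7 0.04, day 14 against day 3 -0.01) and Kcna2 (interaction at day 3 -0.01). Only Kcnab2 in C57BL/6 nerves at day 7 was called in both directions (0.67 on the probe set used and -0.35 on the other, limma adjusted p = 0.0343). In every other case at least 1 of the opposed values was not called. The turned values of Kcna2, Scn3b, Scn7a and Kcnk10, and those of Kcnab2 at day 3, were not called (limma adjusted p = 0.449 to 0.987). The cause was not tested.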
